A study of Mus musculus with 56 samples.

Results

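The immediate early genes are genes whose transcription starts within minutes of a stimulus, without new protein synthesis, and whose mRNA is then quickly degraded. 10 of the 52230 genes measured here were taken from a list of such genes by name: Fos, Fosb, Jun, Junb, Egr1, Ier2, Atf3, Nr4a1, Btg2 and Dusp1. The rule for choosing them uses no expression value, but they were chosen with earlier results of these data known. They were followed in the livers of 56 male mice of a Gckr knock-in line. Gckr is the gene of the nuclear inhibitor of glucokinase, and residue 446 of that protein was either proline (P) or leucine (L). The genotypes were Gckr-446P (PP), which the study calls wild-type, Gckr-446P/L (PL) and Gckr-446L (LL). All mice, controls included, were fed a high-fat high-sugar diet with 45% fat, 10% glucose and 5% fructose for 20 weeks. For some mice of each genotype that diet contained 3 mg/kg of a drug that activates glucokinase (GKA). The groups without GKA held 10 PP, 8 PL and 10 LL mice, and the groups with GKA held 10 PP, 8 PL and 10 LL mice. The line has a C57BL/6N background. The labels do not give age, litter, order of culling or time of day. The study states an age for its mice on this diet, and it describes blood sampling at cull after a short withdrawal of food. PP mouse 7 was left out of every test, so that n = 9 in PP without GKA.

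Immediate early genes are switched on by growth factor, stress, calcium and cAMP signals through the mitogen-activated protein (MAP) kinases, serum response factor and CREB. In liver they are known to respond to partial hepatectomy, glucagon, refeeding, tissue handling and loss of blood flow. Fos, Fosb, Jun and Junb encode the subunits of the AP-1 transcription factor, in which a Fos and a Jun protein pair. Egr1 is a zinc finger transcription factor, Atf3 a stress-induced member of the ATF/CREB family and Nr4a1 an orphan nuclear receptor. Ier2 is a nuclear protein, Btg2 an antiproliferative protein that promotes mRNA deadenylation, and Dusp1 a nuclear phosphatase that switches MAP kinases off.

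Promoters of these genes are shown because CREB acts through the cAMP response element (CRE) in them, and because several of the genes varied together between livers. RefSeq promoter sequences, which run from 250 bases before to 50 bases after the annotated start, were on hand for 8 of the 10 genes. The 5 printed here lie at chr12:85473640-85473939 (plus strand) for Fos, chr8:84978699-84978998 (minus strand) for Junb, chr15:101266596-101266895 (plus strand) for Nr4a1, chr1:134079106-134079405 (minus strand) for Btg2 and chr17:26508423-26508722 (minus strand) for Dusp1. These positions are in the GRCm38.p6 build of that table, whereas all gene positions below are in GRCm39. Each is written 5′ to 3′ on the gene's strand, and capitals mark a match to a motif that was searched for on both strands.
Fos: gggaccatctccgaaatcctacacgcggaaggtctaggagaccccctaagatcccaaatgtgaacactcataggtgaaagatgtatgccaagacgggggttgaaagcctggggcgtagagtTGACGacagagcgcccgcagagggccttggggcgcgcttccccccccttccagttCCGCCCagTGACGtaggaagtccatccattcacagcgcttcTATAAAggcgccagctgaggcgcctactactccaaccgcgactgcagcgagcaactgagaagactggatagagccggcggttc
Junb: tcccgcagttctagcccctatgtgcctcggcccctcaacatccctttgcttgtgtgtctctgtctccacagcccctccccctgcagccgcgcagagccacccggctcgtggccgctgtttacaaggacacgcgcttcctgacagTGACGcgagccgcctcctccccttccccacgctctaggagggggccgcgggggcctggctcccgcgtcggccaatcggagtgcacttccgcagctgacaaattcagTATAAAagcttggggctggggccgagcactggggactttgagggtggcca
Nr4a1: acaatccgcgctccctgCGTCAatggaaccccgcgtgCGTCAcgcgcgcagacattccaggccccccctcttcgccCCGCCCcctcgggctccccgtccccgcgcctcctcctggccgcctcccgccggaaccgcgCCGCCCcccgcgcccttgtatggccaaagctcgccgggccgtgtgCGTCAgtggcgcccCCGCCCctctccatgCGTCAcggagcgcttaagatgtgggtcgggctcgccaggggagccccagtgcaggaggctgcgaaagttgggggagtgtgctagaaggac
Btg2: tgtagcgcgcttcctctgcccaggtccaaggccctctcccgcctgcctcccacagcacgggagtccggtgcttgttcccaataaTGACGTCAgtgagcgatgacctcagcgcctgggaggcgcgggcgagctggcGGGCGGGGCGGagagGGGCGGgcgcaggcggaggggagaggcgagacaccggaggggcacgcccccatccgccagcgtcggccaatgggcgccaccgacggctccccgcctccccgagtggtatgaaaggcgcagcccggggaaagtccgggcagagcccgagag
Dusp1: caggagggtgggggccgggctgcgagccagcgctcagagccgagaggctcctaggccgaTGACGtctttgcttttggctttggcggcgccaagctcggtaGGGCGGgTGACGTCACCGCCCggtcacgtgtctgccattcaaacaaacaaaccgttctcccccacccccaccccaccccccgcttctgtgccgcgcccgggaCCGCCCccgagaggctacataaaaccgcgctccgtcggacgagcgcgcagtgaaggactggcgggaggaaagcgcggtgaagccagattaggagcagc

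The full CRE, TGACGTCA, was found in the Btg2 and Dusp1 promoters, with its first base at position -166 from the start in Btg2 and at -143 in Dusp1. Over all 32851 promoters of the table, 1.79% held it. The shorter core TGACG, which is also part of the full element, was found in 7 of the 8 promoters, those of Fos, Fosb, Junb, Atf3, Nr4a1, Btg2 and Dusp1, against 20.8% of all promoters. Nr4a1 had 4 copies of this core. The GC box GGGCGG was found in 7 of the 8, against 35.7% of all promoters. The TATA box TATAAA was found in Fos and Junb, against 13.6% of all promoters. Its first base was at position -33 from the start in Fos, but at position 1, on the annotated start itself, in Junb. The AP-1 site TGANTCA, the Egr site GCGTGGGCG and the CArG box of serum response factor had no match in these windows. They were present in 7.81%, 0.612% and 1.63% of all promoters. A match describes the letters of the window and is not evidence of binding.

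Total reads per mouse assigned to genes were between 5180009 and 8081223 over the 56 libraries (median 6545350), and the mitochondrial genome took between 6.75% and 12.2% of them. The 6 hepatocyte markers summed to between 74121 and 124497 CPM in a mouse, and the 4 skeletal muscle markers to at most 0.180 CPM. The adipose list summed to between 0 and 63.0 CPM and the pancreas list to between 6.80 and 50.7 CPM, and both rest on 1 gene: Adipoq and Lep had no read in the 55 mice and Plin1 none in 52, which leaves Cidec, a lipid droplet protein that fatty hepatocytes also make, and Prss2, Cpa1 and Pnlip had no read in the 55 mice, which leaves Cela1. At the median depth, 3 reads amount to 0.458 CPM, which limits what can be said of the rarest members. Levels are CPM, the counts of a gene per 1000000 reads of the library after TMM scaling, when a gene is compared between mice, and TPM, the same share computed for transcripts after division by their length, when genes are compared with each other. In these bulk samples, fewer cells of a type and less RNA per cell cannot be told apart.

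The order of the genes by mean TPM over the 55 mice was led by Dusp1 (12.8 ± 7.45 TPM, SD, n = 55), which is on chromosome 17 from 26724564 to 26727493. Junb (chromosome 8, 85703539 to 85705347) followed at 4.17 ± 2.19 TPM and Ier2 (chromosome 8, 85387960 to 85389483) at 3.45 ± 1.42 TPM. Jun (chromosome 4, 94937271 to 94940459), Btg2 (chromosome 1, 134002908 to 134006858) and Nr4a1 (chromosome 15, 101151980 to 101172680) had 1.59 ± 1.10, 1.57 ± 1.01 and 1.37 ± 2.19 TPM. Fos (chromosome 12, 85520658 to 85524047) and Atf3 (chromosome 1, 190902493 to 190950241) had 0.510 ± 0.507 and 0.497 ± 0.564 TPM. Egr1 (chromosome 18) and Fosb (chromosome 7, 19036621 to 19043976) were at 0.0262 ± 0.0499 and 0.0255 ± 0.0478 TPM. Of the 9 steps between neighbours in this order, those from Dusp1 to Junb and from Ier2 to Jun were larger than the larger SD of the pair, and the other 7 were not.

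**Figure D1:**
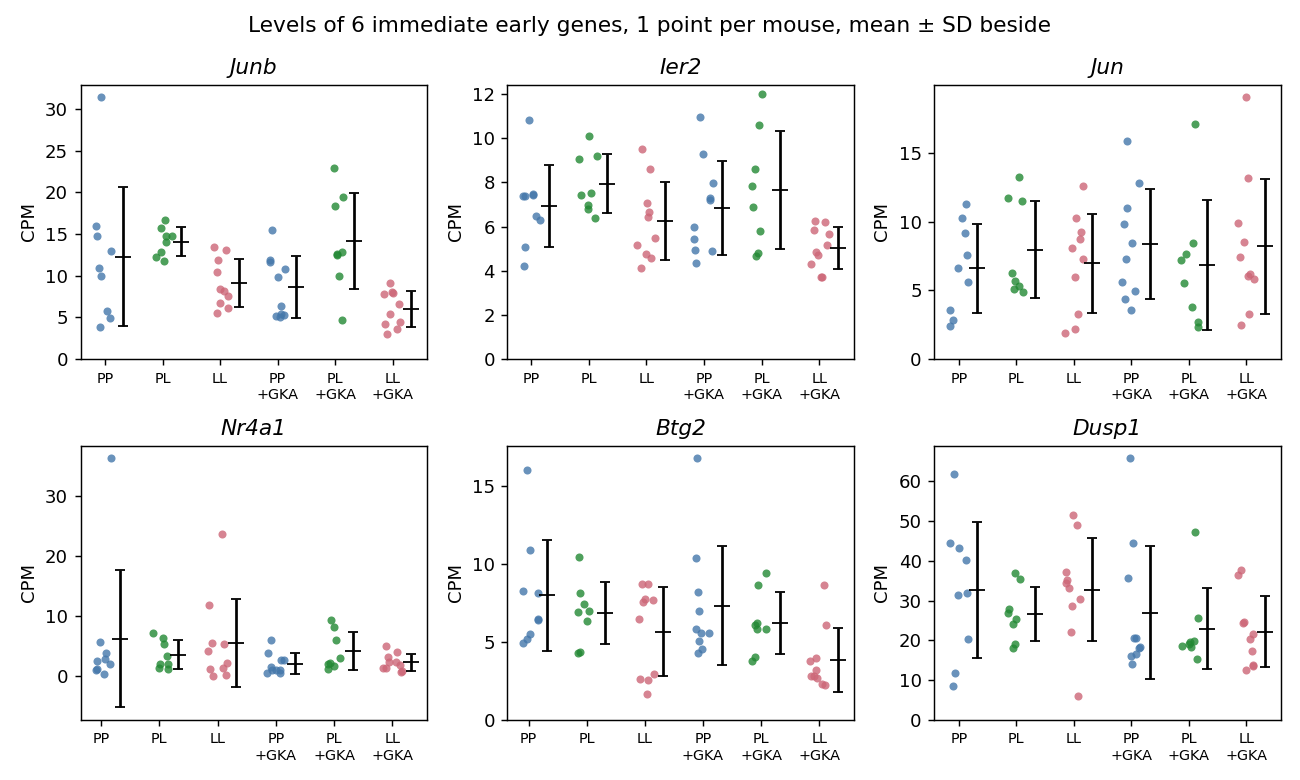
CPM (vertical axes, each starting at or below 0) of the 6 members that could be tested in every comparison, by genotype without and with GKA, with 1 point per mouse and the mean ± SD beside the points. Junb sits between 3.03 and 9.14 CPM in LL with GKA and between 11.7 and 16.7 CPM in PL without GKA, and the high points of Nr4a1 are PP mouse 4 at 36.4 CPM and LL mouse 44 at 23.7 CPM.

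Fosb, Egr1 and Fos, which are among the first genes induced in stimulated cells of most tissues, were rare in these livers. Fosb had 34 reads in all 55 mice together, at most 2 in a mouse, and none in 28 mice. Egr1 had 69 reads, none in 39 mice and at most 9 in a mouse. By group, the number of mice without an Egr1 read was 5 of 9 in PP, 7 of 8 in PL, 8 of 10 in LL, 7 of 10 in PP with GKA, 5 of 8 in PL with GKA and 7 of 10 in LL with GKA. Fos had a read in 54 of 55 mice but a median of only 4 reads and a maximum of 20. Its mean was 0.891 ± 0.933 CPM in PP (n = 9), 0.925 ± 0.570 CPM in PL (n = 8) and 0.581 ± 0.350 CPM in LL (n = 10). With GKA, Fos had 0.841 ± 0.435 CPM in PP (n = 10), 0.799 ± 0.498 CPM in PL (n = 8) and 0.587 ± 0.269 CPM in LL (n = 10). The groups overlapped throughout. Fosb had 1 read in the 10 LL mice with GKA together, against 7 in LL without GKA and 8 in PP with GKA. With no filter on low counts, no member of these 3 was called, and Fosb had an unadjusted p below 0.05 in LL by GKA (edgeR unadjusted p 0.0296, adjusted p 0.664) and in LL against PP with GKA (edgeR unadjusted p 0.0163, adjusted p 0.494). No difference in Fos or Egr1 between groups was detected, and how large a difference could be detected at this depth was not computed. Atf3 had a median of 4 reads per mouse, with group means between 0.641 and 1.21 CPM. The 3 genes Fos, Fosb and Egr1 were below the filter on low counts in every main comparison, and Atf3 was in the 9 comparisons of 2 groups.

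To assess whether genotype or GKA altered the immediate early genes, each was tested in 9 comparisons of 2 groups with the quasi-likelihood test of edgeR, and over the 6 groups together. A gene was called at a Benjamini-Hochberg adjusted p below 0.05 over all genes tested, and a fold change that was 1.3 or higher, or else 0.7 or lower. None of the 6 members tested (Jun, Junb, Ier2, Nr4a1, Btg2 and Dusp1) was called in any of the 9 comparisons of 2 groups. DESeq2 on the same mice called 1 member, Junb, in 1 of the 9 and none in the other 8. Junb alone was called in the test of any difference among the 6 groups, which has no fold limit (edgeR adjusted p 0.0217). That test called 216 of 11477 genes, or 1.88%, and 1 of the 7 members tested.

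Junb, the AP-1 subunit often described as a brake on Jun, had the smallest p of the members among the 6 groups. Without GKA the lowest, median and highest mouse had 3.87, 10.9 and 31.5 CPM in PP, 11.7, 14.4 and 16.7 CPM in PL, and 5.50, 8.23 and 13.5 CPM in LL. With GKA these values were 5.07, 8.11 and 15.5 CPM in PP, 4.69, 12.7 and 22.9 CPM in PL, and 3.03, 6.03 and 9.14 CPM in LL. The PL mice were the highest in their medians and the LL mice with GKA the lowest. All LL mice with GKA were below all PL mice without GKA, and 1 PL mouse with GKA, mouse 30, was within the range of the LL mice with GKA. The means were 12.3 ± 8.38 CPM in PP (n = 9), 14.1 ± 1.73 CPM in PL (n = 8) and 9.13 ± 2.89 CPM in LL (n = 10), and with GKA 8.69 ± 3.73 CPM in PP (n = 10), 14.2 ± 5.81 CPM in PL (n = 8) and 6.01 ± 2.15 CPM in LL (n = 10). The call among the 6 groups held with each of the 55 mice left out in turn (edgeR adjusted p between 0.00707 and 0.0440).

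The largest difference of Junb between 2 groups was that of LL against PL with GKA. Its log2 fold change was -1.22 (SE 0.25, edgeR unadjusted p 0.000103, adjusted p 0.124). None of the 10491 genes reached a smaller adjusted p in that comparison, and Zfp36, a gene described below, had the same one. With mouse 30 of PL with GKA left out, the log2 fold change of Junb was -1.35 and its adjusted p 0.0172. No other mouse changed the outcome for Junb when left out. DESeq2 gave an adjusted p of 0.00437 and the fit of all 6 groups gave 0.0399. Without GKA the log2 fold change of LL against PL was -0.63 (SE 0.16, edgeR unadjusted p 0.000828, adjusted p 0.303). Junb also varied with measures of the liver other than the group, which are given with the correlations. With the clock component of each liver as a covariate, Junb was still called among the 6 groups (edgeR adjusted p 0.0245).

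LL against PL also had the lower values of Ier2, whose gene lies on the same chromosome as Junb. With GKA the lowest, median and highest mouse had 4.68, 7.36 and 12.0 CPM in PL and 3.70, 5.01 and 6.27 CPM in LL. The ranges overlapped, with a log2 fold change of -0.59 (SE 0.18, edgeR unadjusted p 0.00359, adjusted p 0.343). Without GKA the mice had 6.38, 7.48 and 10.1 CPM in PL and 4.11, 5.96 and 9.52 CPM in LL, with a log2 fold change of -0.37 (SE 0.15, edgeR unadjusted p 0.0272, adjusted p 0.951). Btg2, in the same comparison with GKA, had a log2 fold change of -0.66 (SE 0.26, edgeR unadjusted p 0.0185, adjusted p 0.480).

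In LL against PL, an unadjusted p below 0.05 was reached by 2 of 6 members without GKA (Junb and Ier2) and by 3 of 6 with GKA (Junb, Ier2 and Btg2). The background shares were 4.58% of 10616 genes and 8.6% of 10491 genes. The median log2 fold change of the 6 members was -0.23 without GKA and -0.62 with GKA, while the medians of all genes were 0.000549 and -0.00245. The call rule was met by 0.00942% of genes without GKA and by 0% with GKA.

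In LL against PP without GKA no member had an unadjusted p below 0.05, against 11.8% of 10537 genes, and 0.0854% of genes were called. The member log2 fold changes were between -0.45 (Btg2) and 0.09 (Jun), with a median of -0.15. In PL against PP without GKA no member had an unadjusted p below 0.05 either, against 10.1% of 10580 genes, and 0.151% of genes were called. There the member values were between -0.80 (Nr4a1) and 0.27 (Jun).

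With GKA, 3 members had an unadjusted p below 0.05 in LL against PP, against 10.4% of 10460 genes, and 0.239% of all genes were called. Btg2 had 4.31, 5.68 and 16.8 CPM in the lowest, median and highest PP mouse with GKA, and 2.21, 3.01 and 8.66 CPM in LL with GKA. Its log2 fold change was -0.90 (SE 0.28, edgeR unadjusted p 0.00369, adjusted p 0.209), and the groups overlapped. Ier2 had a log2 fold change of -0.43 (SE 0.16, edgeR unadjusted p 0.0167, adjusted p 0.339) and Junb one of -0.51 (SE 0.24, edgeR unadjusted p 0.0446, adjusted p 0.472). In PL against PP with GKA, Junb had a log2 fold change of 0.70 (SE 0.27, edgeR unadjusted p 0.0183, adjusted p 0.455) and Nr4a1 one of 1.05 (SE 0.49, edgeR unadjusted p 0.0434, adjusted p 0.589). These were 2 of 6 members, against 8.19% of 10520 genes, with 0% of genes called. The value of Junb was 0.43 with the clock component as a covariate (edgeR unadjusted p 0.187). The 3 comparisons with GKA share their groups in pairs, as do the 3 without GKA, so these values are not independent of each other.

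**Figure D2:**
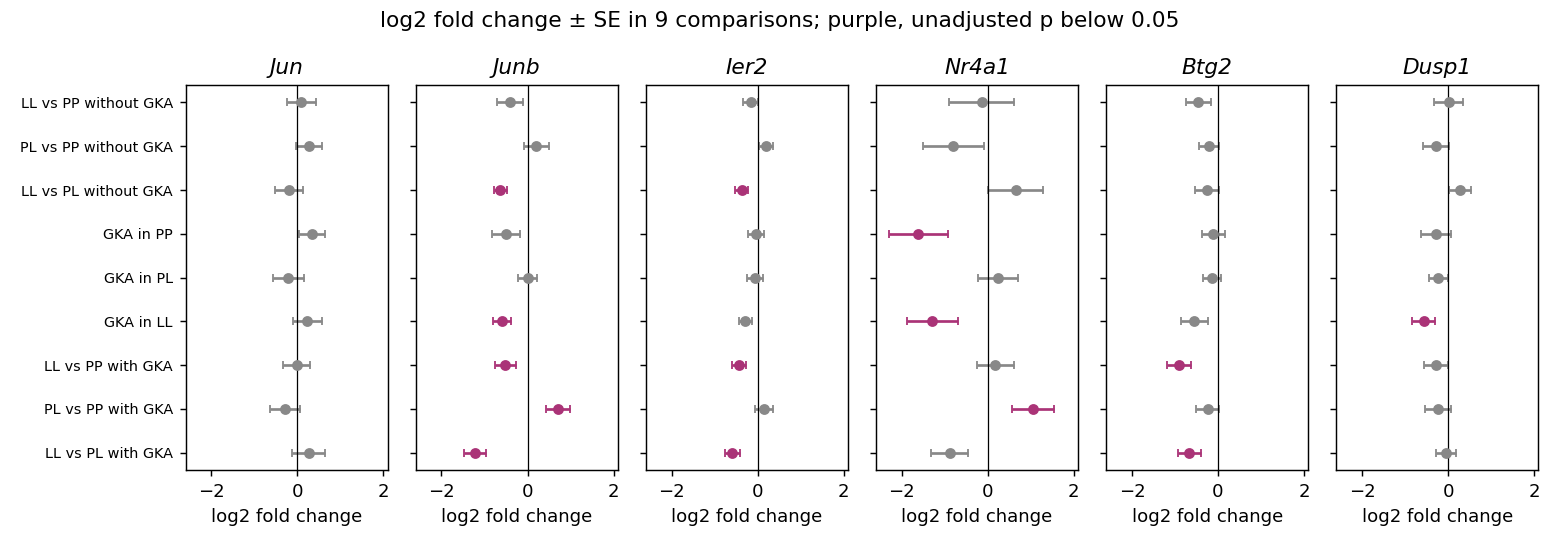
log2 fold change (horizontal axes) with its SE for the 6 members in the 9 comparisons of 2 groups (rows); purple points have an unadjusted p below 0.05, and none was called. Junb is on the lower side in LL against PL both without (-0.63) and with GKA (-1.22), while the bars of Nr4a1 are the widest.

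GKA was compared with no GKA within each genotype. In PP, 1 of 6 members had an unadjusted p below 0.05, against 3.56% of 10548 genes, in PL 0 of 6, against 3.18% of 10399 genes, and in LL 3 of 6, against 6.15% of 10458 genes. No gene of the transcriptome was called by edgeR in these 3 comparisons (0%), and DESeq2 called 2, 4 and 11 genes in PP, PL and LL. In LL, Junb had a log2 fold change of -0.59 (SE 0.21, edgeR unadjusted p 0.00854, adjusted p 0.744). Dusp1, which in LL had 5.96, 33.9 and 51.6 CPM in the lowest, median and highest mouse without GKA and 12.6, 20.9 and 37.6 CPM with GKA, had a log2 fold change of -0.56 (SE 0.27, edgeR unadjusted p 0.0482, adjusted p 0.808). Without LL mouse 44, the value of Dusp1 in LL was -0.48 (edgeR unadjusted p 0.0934). The median over the 6 members was -0.55 in LL, -0.19 in PP and -0.10 in PL, while the medians of all genes were 0.00218, 0.00465 and 0.00739.

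Of the 6 members tested in the comparisons of 2 groups, Nr4a1 had the largest fold changes by GKA, and these rested on single mice. Without GKA the lowest, median and highest mouse had 0.295, 2.53 and 36.4 CPM in PP, and 0, 3.11 and 23.7 CPM in LL. With GKA these values were 0.396, 1.25 and 5.93 CPM in PP, and 0.632, 2.05 and 4.96 CPM in LL. PP mouse 4 held 262 of the 386 Nr4a1 reads of its group, and LL mouse 44 held 151 of 397. The log2 fold change by GKA was -1.61 in PP (SE 0.69, edgeR unadjusted p 0.0294, adjusted p 1.00) and -1.29 in LL (SE 0.60, edgeR unadjusted p 0.0426, adjusted p 0.803). Without PP mouse 4 the value in PP was -0.22 (edgeR unadjusted p 0.657), and without LL mouse 44 the value in LL was -0.67 (edgeR unadjusted p 0.220). PP mouse 4 was also the highest PP mouse for Dusp1 (61.8 CPM) and Ier2 (10.8 CPM), and LL mouse 44 had 48.9 CPM of Dusp1.

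Over the 3 genotypes together, with genotype in the model, 3 of 7 members had an unadjusted p below 0.05 for GKA, against 5.28% of 11477 genes, and 0% of genes were called. The log2 fold changes were -0.38 for Junb (SE 0.16, edgeR unadjusted p 0.0220, adjusted p 0.874), -0.94 for Nr4a1 (SE 0.38, edgeR unadjusted p 0.0174, adjusted p 0.834) and -0.36 for Dusp1 (SE 0.17, edgeR unadjusted p 0.0411, adjusted p 0.928). Without PP mouse 4 and LL mouse 44 they were -0.38 for Junb, -0.23 for Nr4a1 and -0.28 for Dusp1. The edgeR unadjusted p was then 0.0245 for Junb, 0.459 for Nr4a1 and 0.120 for Dusp1. With PP mouse 7 kept, Dusp1 had a value of -0.33 (edgeR unadjusted p 0.0676). The interaction of GKA with genotype had an unadjusted p below 0.05 in 0 of 7 members, against 4.31% of genes, and 0% of genes were called, so a GKA effect that differs by genotype was not shown for any of them. Among the 6 groups, Ier2 (edgeR unadjusted p 0.00990, adjusted p 0.180) and Btg2 (edgeR unadjusted p 0.0147, adjusted p 0.221) were next to Junb, so that 3 of 7 members had an unadjusted p below 0.05, against 12.7% of genes.

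The members varied widely between livers. Over the 55 mice the highest level of Dusp1 was 11.1-fold the lowest, and that of Junb 10.4-fold, Btg2 10.4-fold, Jun 10.0-fold and Ier2 3.24-fold. The biological coefficient of variation within groups, as edgeR estimated it per gene, was 0.928 for Nr4a1, 0.752 for Atf3, 0.510 for Jun, 0.443 for Dusp1, 0.395 for Btg2, 0.392 for Junb and 0.223 for Ier2. The median of the 11477 genes was 0.174. Nr4a1 was at percentile 96.6 of all genes and Junb at percentile 89.1, whereas Ier2 was at percentile 68.1. These ranks are over genes of all levels of expression. The trend that edgeR fitted on expression level was higher for the rare Atf3 (0.448) than for Dusp1 (0.228). Divided by that trend, the coefficient was 2.97 for Nr4a1, 1.94 for Jun, 1.94 for Dusp1 and 1.68 for Atf3. It was 1.60 for Junb, 1.41 for Btg2 and 0.812 for Ier2, against a median of 0.628 over the 11477 genes. In Jun, the group means were between 6.60 and 8.37 CPM and the individual mice between 1.91 and 19.1 CPM.

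Correlations across the 55 mice, with each gene centred within its group, were used to ask whether livers high in one member were high in the others. Of the 45 pairs of members, 33 had a positive Pearson's r, with a median of 0.16, and 11 pairs passed the permutation test (adjusted p below 0.05 over the 45 pairs), all 11 of them positive. The share of pairs of other genes that would pass is not given here, so the 11 are not set against a background. The pair with the highest r was Fos and Btg2 (r 0.57, permutation p 2e-05, adjusted 0.0009, Spearman's rho 0.57, n = 55), and r was 0.52 without the 2 mice farthest from the median of Fos. Nr4a1 and Dusp1 had an r of 0.54 (permutation p 0.00018, adjusted 0.00162, rho 0.55), Fos and Jun 0.53 (permutation p 9e-05, adjusted 0.00135, rho 0.61) and Jun and Atf3 0.53 (permutation p 9e-05, adjusted 0.00135, rho 0.52). These 4 pairs were positive in each of the 6 groups. Without the 2 mice farthest from the median of the first gene, r was 0.48 for Nr4a1 and Dusp1, 0.52 for Fos and Jun and 0.54 for Jun and Atf3.

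Fos, Jun, Atf3, Nr4a1 and Btg2 were linked to each other by most of the other pairs that passed. Atf3 and Btg2 had an r of 0.51 (adjusted permutation p 0.00157), Jun and Nr4a1 0.50 (adjusted permutation p 0.00225), Fos and Nr4a1 0.50 (adjusted permutation p 0.00347), Nr4a1 and Btg2 0.41 (adjusted permutation p 0.0417), Jun and Btg2 0.40 (adjusted permutation p 0.0264) and Fos and Atf3 0.36 (adjusted permutation p 0.0417). Junb passed with 1 member, Btg2 (r 0.34, adjusted permutation p 0.0417, rho 0.30 with adjusted p 0.0866). Ier2 passed with none, and its r with Junb was 0.37 (permutation p 0.0140, adjusted 0.0525). Fosb and Egr1 passed with none, and at their counts a correlation can hardly be seen.

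**Figure D3:**
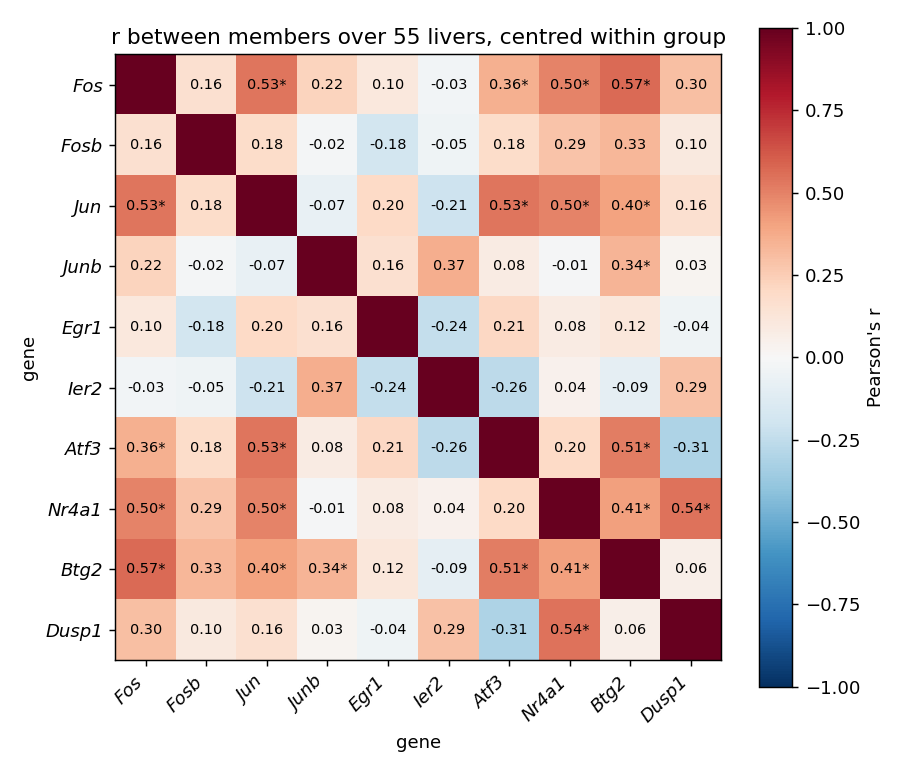
Pearson's r between the 10 members over 55 livers, after centring within the 6 groups; red is positive, blue negative, and a star marks an adjusted permutation p below 0.05. The starred pairs join Fos, Jun, Atf3, Nr4a1 and Btg2, with Dusp1 joined through Nr4a1 (0.54) and Junb through Btg2 (0.34), while Ier2, Fosb and Egr1 have none.

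Among single livers, PL mouse 29 with GKA was the highest of its group for 5 of the 10 members, with 17.1 CPM of Jun, 9.44 CPM of Btg2, 2.33 CPM of Atf3, 1.64 CPM of Fos and 2 reads of Fosb. In contrast, its Junb (12.4 CPM) was near the group median. Its adipose list, which is Cidec, was at 26.8 CPM, against a group median of 1.98 CPM. No other mouse was the highest or the lowest of its group for 5 or more members.

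The members were also compared with 11 other measures of each liver, namely total reads, the mitochondrial share, a component of the clock genes, and the mean log2 CPM of lists of glucocorticoid, heat shock, fasting and feeding, acute phase, endothelial, macrophage, neutrophil and blood genes. Of the 110 relations, 15 passed (adjusted p below 0.05 over the 110), and 10 of these were positive. Here, and for the further lists below, no share of other genes stands beside the count. Only 7 of the 15 also had an adjusted permutation p below 0.05 by Spearman's rho. These were Btg2 with the glucocorticoid, macrophage and neutrophil lists, and Atf3 with the neutrophil and endothelial lists. The remaining ones were Dusp1 with the clock component and Junb with the endothelial list. Total reads per mouse passed with no member. Btg2 was directly related to the glucocorticoid list (r 0.57, permutation p 2e-05, adjusted 0.0022, rho 0.52, r 0.52 without the 2 mice farthest from the median of the list). The glucocorticoid list holds Per1 and Sgk1, which are also among the other immediate early genes described below, and it shares Lcn2 with the acute phase list. Btg2 also passed with the macrophage (r 0.44), neutrophil (r 0.46) and acute phase (r 0.36) lists. Dusp1 was inversely related to the clock component (r -0.49, permutation p 0.00019, adjusted 0.00697, rho -0.52, r -0.42 without the 2 farthest mice), which is higher where Dbp is higher, and Junb was directly related to it (r 0.39, adjusted permutation p 0.0367, rho 0.36 with adjusted p 0.0889).

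Atf3 went with the neutrophil list (r 0.54, permutation p 4e-05, adjusted 0.0022, rho 0.52) and the endothelial list (r 0.39), and Fos with the neutrophil list (r 0.41). The neutrophil markers were near the limit of detection, between 0.315 and 3.83 CPM summed over 6 genes in a mouse, and the defining marker Ly6g had no read in 5 of the 6 groups. Jun went with the endothelial list (r 0.42, adjusted permutation p 0.0367). Junb and Ier2 went the other way, with an r of -0.41 and -0.38 with the endothelial list. Ier2 had an r of -0.37 with the neutrophil list. After the clock component was also removed, 7 relations with the measures passed, and all 7 were positive. On the TPM scale, 47 of the 48 relations that passed were positive. The endothelial markers were present in every group, between 84.5 and 200.5 CPM summed over 8 genes in a mouse. Nr4a1 was related to the mitochondrial share (r 0.42, rho 0.32) and Junb inversely so (r -0.37, rho -0.32). The part that these cells and states have in the levels of the members was not tested.

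Cidec, which carries the adipose list, and Cela1, which carries the pancreas list, went with the same members in opposite directions. Of 40 relations between the members and the adipose, pancreas, bile duct and B cell lists, a set added after the data were seen, 10 passed (adjusted p below 0.05 over the 40). The adipose list had an r of 0.72 with Atf3 and of 0.60 with Jun (for both, permutation p 1e-05, the smallest that these shuffles can give, adjusted 0.000200, rho 0.72 and 0.65). Its r was 0.50 with Btg2 (adjusted permutation p 0.00184), 0.38 with Fos (adjusted permutation p 0.0294) and -0.44 with Ier2 (adjusted permutation p 0.00480). Without the 2 mice farthest from the median of the list, r was 0.71 for Atf3 and 0.68 for Jun. The pancreas list had an r of -0.64 with Jun, -0.58 with Atf3, -0.52 with Btg2, -0.46 with Fos and 0.46 with Ier2. Its adjusted permutation p was between 0.000267 and 0.00455 for these. Junb, Nr4a1 and Dusp1 passed with neither list.

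With the adipose list removed from each member within groups, 9 of the 45 pairs passed, and 6 of these were among the 11 above. The 5 that no longer passed were Jun and Atf3 (r 0.18, adjusted permutation p 0.493), Atf3 and Btg2 (r 0.26, adjusted permutation p 0.223), Jun and Btg2 (r 0.15, adjusted permutation p 0.558), Fos and Atf3 (r 0.13, adjusted permutation p 0.576) and Nr4a1 and Btg2 (r 0.39, adjusted permutation p 0.0572). Nr4a1 and Dusp1 (r 0.60), Jun and Nr4a1 (0.52), Fos and Nr4a1 (0.48), Fos and Btg2 (0.48), Fos and Jun (0.41) and Junb and Btg2 (0.38) still passed. Pairs that passed only after this removal were Fos and Dusp1 (r 0.45, adjusted permutation p 0.0148), Junb and Ier2 (r 0.42, adjusted permutation p 0.0193) and Jun and Dusp1 (r 0.41, adjusted permutation p 0.0232).

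**Figure D4:**
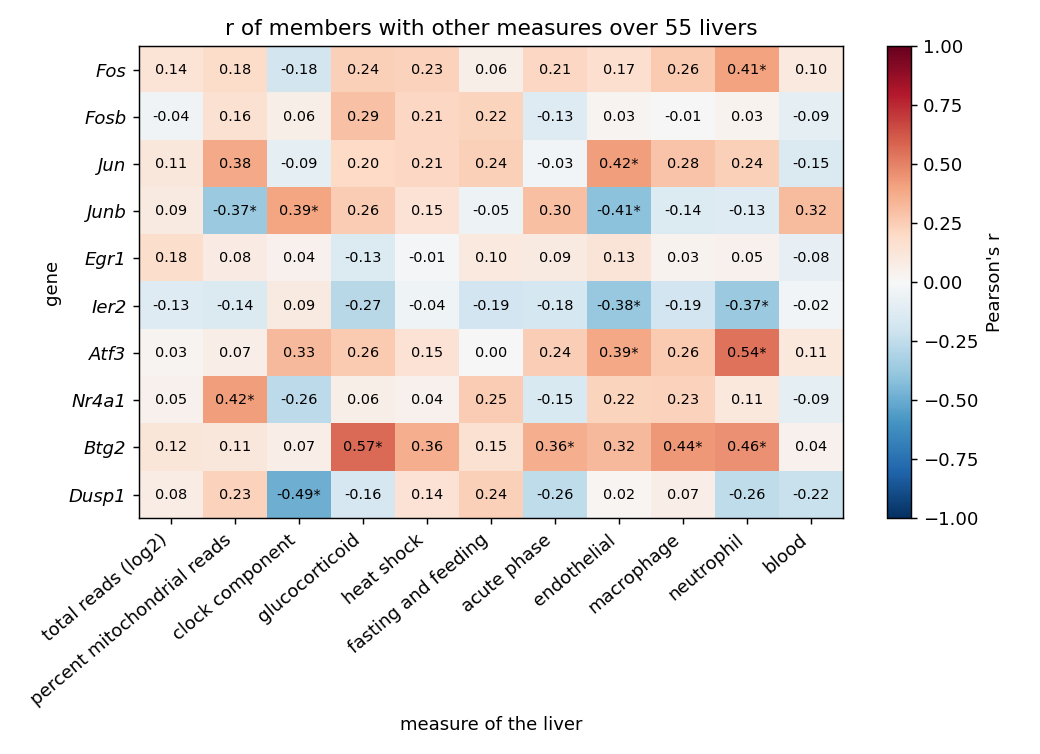
Pearson's r of each member (rows) with 11 other measures of the liver (columns) over 55 mice, after centring within the 6 groups, with a star for an adjusted permutation p below 0.05. The extremes are Btg2 with the glucocorticoid list (0.57) and Dusp1 with the clock component (-0.49), and Junb and Ier2 are blue in the endothelial column where Jun and Atf3 are red.

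Outside the members, genes with the highest median r with them included Bche (0.41), Ctsc (0.35), Otud7b (0.35), Ciita (0.35), Abhd2 (0.35), Stk10 (0.34), Man1b1 (0.34), Zfp367 (0.34) and Myh9 (0.34), among the genes that passed the filter over the 6 groups. None of these 9 is on the list of other immediate early genes, and each of them was inversely related to at least 1 member. These values are a description over 55 livers that share libraries and depth.

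Of 43 other immediate early and stress-inducible genes, between 23 and 25 could be tested in the comparisons of 2 groups. None had an adjusted p below 0.05 in 8 of the 9, and 2 of 24 were called in LL against PP with GKA, against 0.239% of all genes. Klf10, a transcription factor induced by TGF-beta and by glucose, had 6.47, 12.0 and 20.1 CPM in the lowest, median and highest PP mouse with GKA and 18.5, 24.3 and 41.1 CPM in LL with GKA. It rose with a log2 fold change of 1.11 (SE 0.21, edgeR adjusted p 0.0230), with some overlap. Dusp6, the cytoplasmic ERK phosphatase, had 23.4, 31.0 and 39.4 CPM in PP with GKA and 37.3, 46.5 and 56.5 CPM in LL with GKA, and rose with a log2 fold change of 0.56 (SE 0.10, edgeR adjusted p 0.0204). Klf10 stayed called except with the transcript length offset (edgeR adjusted p 0.304), whereas Dusp6 was no longer called with that offset (adjusted p 0.762), with all 6 groups in 1 fit (0.0625) or with the clock component as a covariate (0.0546). Their log2 fold changes were positive where those of Junb, Ier2 and Btg2 in that comparison were negative.

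Among the 6 groups, 3 of the 28 genes of this list that could be tested were called, against 1.88% of all genes: Klf10 (edgeR adjusted p 0.00129), Dusp6 (edgeR adjusted p 0.00491) and Zfp36 (edgeR adjusted p 0.00129). Zfp36, the mRNA-destabilising protein tristetraprolin, is named after its values were seen. Its means were 52.7 ± 17.1 CPM in PP (n = 9), 50.1 ± 6.24 CPM in PL (n = 8) and 37.0 ± 9.92 CPM in LL (n = 10), and with GKA 40.3 ± 10.5 CPM in PP (n = 10), 42.0 ± 10.6 CPM in PL (n = 8) and 26.4 ± 4.86 CPM in LL (n = 10). LL with GKA had the lowest mean, as for Junb. With the transcript length offset Zfp36 was still called (edgeR adjusted p 0.0232), and Klf10 (0.0717) and Dusp6 (0.236) were not. Errfi1, Dusp6 and Mcl1 had the highest mean TPM of the list (113, 14.2 and 12.3 TPM). The group means of Mcl1 were between 57.6 and 61.6 CPM and those of Errfi1 between 433 and 633 CPM.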

How the data were processed

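Liver RNA of 56 mice, 1 library each, was sequenced after the study had screened it for integrity. The authors trimmed no reads and ran Salmon 1.4.0 on the mouse transcripts of GENCODE M26 (GRCm39), with FastQC as a quality check, per the study's methods and the submitters' processing notes. The strand setting is not given in the sources used here. Each deposited file gives estimated counts (not normalised), TPM (scaled by effective length by the authors' tool), length and effective length for 139225 transcripts. Here transcripts were assigned to genes of GENCODE vM39 (GRCm39) by identifier without version (137570 matched, holding between 99.8% and 99.9% of the reads of a mouse), and the estimated counts were summed per gene and rounded. TPM were summed per gene.

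Groups came from the labels. Genes were tested with edgeR 4.0.16 in R 4.3.3 (TMM, filterByExpr, quasi-likelihood test), and with DESeq2 1.42.0, the tool of the study, as an alternative. SEs are the log2 fold change over the root of the F statistic. log2 CPM has a prior count of 2. Correlations were tested by two-sided permutation (NumPy 2.4.6) with 100000 shuffles of mice within groups, and adjusted by Benjamini-Hochberg. The labels do not say that mice were independent of litter or cage. The tests treat each mouse as independent, so p-values could be too small if mice shared litters or cages. Chi-square tests of counts between mice of a group had statistics of 11.3 or more for each degree of freedom over 236 pairs, so no pair looked like 1 library under 2 names. Of the reads of Junb, 100.0% were on the single-exon transcript Junb-201, which no other gene's exon overlaps, whereas 232 bases of Jun overlap Junos on the opposite strand (at most 7 reads in a mouse). Of the reads of Dusp1, 21.0% were on transcripts with a retained intron.

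The members and lists were chosen with earlier results of these data known. Named were all members in all groups, their fold changes where the unadjusted p was below 0.05, listed companion genes with an adjusted p below 0.05 in a comparison of 2 groups or among the 3 with the highest mean TPM, the 10 genes most like the members, and mice at the end of their group for 5 or more members. Alternatives were another normalisation, no filter, 1 fit of all groups, a transcript length offset, the clock component (first principal component of 14 clock genes, 65.9% of their variance) as a covariate, PP mouse 7 kept, and the TPM scale for correlations. Leaving out single mice, and removing the adipose list from the correlations, were added after seeing the data. PP mouse 7 was left out as in the study. No batch is given in the labels, so no comparison within batches was made. The Egr1 promoter and 1 of the 10 genes most like the members are not reported here.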

Additional observations from a re-analysis of the deposited data

Results flagged for a closer look

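In 7 of the 60 gene and group combinations tested, 1 mouse lay apart from its group by Dixon's criterion on log2 CPM, where chance gives about 3. The levels printed here are CPM, on which the gaps differ. Nr4a1 in PP mouse 4 (36.4 CPM, next highest 5.61 CPM) was not among the 7 on the log2 scale. For Dusp1, LL mouse 37 was low at 5.96 CPM (next lowest 22.1 CPM) and PL mouse 35 with GKA was high at 47.2 CPM (next highest 25.7 CPM). For Atf3, LL mouse 48 with GKA was high at 3.91 CPM, or 33 reads (next highest 1.51 CPM), in the mouse with the highest adipose list (63.0 CPM, all of it Cidec), and PL mouse 21 had 0 CPM (next lowest 0.495 CPM). The other 3 rest on very few reads: Fosb in LL mouse 54 with GKA (0.158 CPM, 1 read), Egr1 in PL mouse 24 (0.446 CPM, 4 reads) and Egr1 in LL mouse 50 with GKA (1.05 CPM, 6 reads).

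PP mouse 7, which the comparisons do not use, had 13.9 CPM of Jun, above the 11.4 CPM of the highest of the other 9 PP mice. It also had 5.45 CPM of Atf3 (44 reads), against at most 1.94 CPM in the other PP mice and 3.95 CPM in any other mouse. Its Junb (8.42 CPM) and Dusp1 (12.0 CPM) were within the range of the other PP mice.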

How the results depend on the processing

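Of the 75 counts of members called under the alternatives of the methods, 73 were the same as in the fits of the report. In LL against PL with GKA, 1 member (Junb) was called with DESeq2 and 1 with all 6 groups in 1 fit, against 0 in the report, and between 0 and 1 when each of the 18 mice was left out (1 without PL mouse 30 with GKA). Its adjusted p was between 0.00437 and 0.234 over the alternatives. Among the 6 groups, 1 member (Junb) was called under every alternative run (adjusted p between 0.00241 and 0.0465), the highest with the transcript length offset, and 1 with each mouse left out. The number of pairs of members that passed was 23 on the TPM scale, against 11. For relations with other measures, 15 passed in the report, 10 of them positive. On the TPM scale 48 passed, 47 of them positive, and after the clock component was also removed 7 passed, all 7 positive. That last set holds 100 relations, without those to the component itself, and 13 of the 15 were among these 100. The cause of the other shifts was not tested. No member fold change with an unadjusted p below 0.05 was reversed, and 14 of 103 repeats no longer had one below 0.05. With DESeq2, Nr4a1 for GKA in PP was -0.20 (unadjusted p 0.682). Counts of all genes moved too: 396 (DESeq2) and 105 (clock component) against 216 among the 6 groups, 89 (DESeq2), 45 (all groups in 1 fit), 14 (clock component) and 0 (transcript length) against 25 in LL against PP with GKA, 37 (DESeq2), 21 (all groups in 1 fit) and 2 (transcript length) against 0 in LL against PL with GKA, and 36 (DESeq2) and 21 (all groups in 1 fit) against 0 in PL against PP with GKA. Without GKA, LL against PP gave between 0 and 109 against 9, PL against PP between 0 and 68 against 16, and LL against PL between 0 and 22 against 1. For GKA, the alternatives gave between 0 and 2 in PP, 4 in PL, 11 in LL and 4 over all genotypes, against 0 in each. All 130 group means moved by less than 1 SD under other scalings or with PP mouse 7 kept. No paired analysis was possible because the groups share no mouse numbers. Depth limited Fosb and Egr1 to at most 2 and 9 reads in a mouse.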

Other observations

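Gene lists of states that can accompany handling stress varied by group in the following way. The summed level of 10 glucocorticoid-responsive genes, among them Fkbp5, the metallothioneins and Tat, had a median of 892 CPM in PP (range 310 to 1523), 489 CPM in PL (321 to 694) and 618 CPM in LL (426 to 870). With GKA it was 543 CPM in PP (249 to 1048), 638 CPM in PL (451 to 1070) and 518 CPM in LL (336 to 769). The groups overlapped.

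The 13 heat shock genes, which encode chaperones such as Hspa8 and Hsp90ab1, summed to a median of 2668 CPM in PP (2194 to 3243), 1984 CPM in PL (1827 to 2215) and 2031 CPM in LL (1898 to 3172). With GKA they summed to 2419 CPM in PP (1988 to 2919), 1921 CPM in PL (1771 to 2117) and 1970 CPM in LL (1676 to 2601). The PP groups had the highest medians. These sums were not tested.

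Of the 19 genes for proteins that act upstream of immediate early genes, such as Srf and Creb1, 18 passed the filter on low counts. None had an adjusted p below 0.05 in any comparison by edgeR, and 1 to 6 had an unadjusted p below 0.05 in 7 of the 9 comparisons of 2 groups. The highest count was 6 of 18, in PL against PP without GKA, where 10.1% of all genes had one. The next was 3 of 18 in LL against PP without GKA, where 11.8% had one. In the other comparisons of 2 groups at most 2 of 18 had one, where between 3.18% and 10.4% of all genes had one.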
